A study of Mus musculus with 24 samples.

Results

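The 263 regions described here are peaks of SOX8 in the retina of mice at postnatal day 2 (P2) that overlapped no peak of the promoter mark H3K4me3 at the same age. They were chosen by that overlap, from 2653 P2 SOX8 peaks and 349901 peaks in all 8 lists used, so their lack of P2 H3K4me3 is not a result. The other 2390 P2 SOX8 peaks overlapped P2 H3K4me3 by 1 bp or more. Another set served for comparison: of 1104 P2 SOX9 peaks outside H3K4me3, the 878 that overlapped no P2 SOX8 peak.

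The study profiled wild-type mouse retina at P2 and at postnatal day 17 (P17) by CUT&RUN, in which an antibody brings a nuclease to its target on chromatin and the released DNA is sequenced. Its 24 libraries came from reactions of 600000 nuclei each. Per age there were 4 libraries for SOX8, from a GeneTex and a Proteintech antibody, and 2 each for SOX9, H3K4me3, H3K27ac and a nonspecific IgG. The labels give no strain, sex or number of animals, and whole retina mixes cell types, so a site used in fewer cells and a weaker site in the same cells cannot be told apart.

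SOX8 and SOX9 are SoxE proteins, transcription factors that bind the minor groove of DNA through an HMG box. SOX9 is known in retinal progenitors and later in Müller glia, the radial glial cells of the retina. H3K4me3 marks the promoters of active and poised genes, whereas H3K27ac marks active promoters and enhancers, which often lie far from the genes they act on. At P2 progenitors still divide and give rise to rods, bipolar cells and Müller glia, and at P17 the eyes are open and the cell types are in place.

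The peak lists hold positions only, 1 list for each target and age, with no value for a replicate, an antibody or a peak height. No replicate error can therefore be given. Intervals in brackets are 95% Wilson intervals that cover counting error only, and Fisher's exact tests compare lists as they stand, since peaks are not replicates. The lists were 2653 P2 and 2400 P17 peaks for SOX8, 5476 and 2855 for SOX9, 9134 and 9629 for H3K4me3, and 287845 and 29909 for H3K27ac. The labelled tissue was checked through H3K4me3, which lay at the progenitor genes Pax6, Rax, Ccnd1 and Fgf15 at P2 and at the rod genes Gnat1, Pde6b, Sag and Nrl at P17. The IgG libraries were not analysed here, so no background measured in the same way stands beside these counts.

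Few of the 263 peaks held the start of a gene, and sequences at the starts inside such peaks are shown here. Each line gives the 250 bases before a start in the RefSeq promoter table of GRCm38.p6, all of them inside one of the 263 peaks. Josd2 (a deubiquitinase), Cyp46a1 (the cholesterol 24-hydroxylase of neurons), Pnpla3 (a lipase of lipid droplets) and Chst12 (a chondroitin sulfotransferase) are shown because their peaks overlapped all 4 SOX lists, at both ages. Bbs2 (a subunit of the BBSome of cilia) and Wars2 (the mitochondrial tryptophanyl-tRNA synthetase) are shown because their peaks overlapped H3K4me3 at P17 and hold a SOX core motif. Unc5b, a netrin receptor, lies at the only one of the 263 peaks without P2 H3K27ac. Capitals mark the core letters ACAAAG or ACAATG, or their reverse complements CTTTGT or CATTGT.
Josd2 (chr7:44467730-44467979, + strand): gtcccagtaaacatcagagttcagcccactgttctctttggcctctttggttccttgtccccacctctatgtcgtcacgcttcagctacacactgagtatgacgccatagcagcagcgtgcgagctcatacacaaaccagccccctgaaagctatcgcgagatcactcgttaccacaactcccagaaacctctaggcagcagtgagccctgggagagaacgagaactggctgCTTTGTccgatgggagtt
Cyp46a1 (chr12:108334066-108334315, + strand): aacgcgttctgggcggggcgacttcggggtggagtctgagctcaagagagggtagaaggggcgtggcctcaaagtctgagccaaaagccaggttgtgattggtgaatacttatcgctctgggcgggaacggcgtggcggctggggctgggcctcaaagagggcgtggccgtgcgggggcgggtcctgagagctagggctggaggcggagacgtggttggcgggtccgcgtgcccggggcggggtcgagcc
Pnpla3 (chr15:84167566-84167815, + strand): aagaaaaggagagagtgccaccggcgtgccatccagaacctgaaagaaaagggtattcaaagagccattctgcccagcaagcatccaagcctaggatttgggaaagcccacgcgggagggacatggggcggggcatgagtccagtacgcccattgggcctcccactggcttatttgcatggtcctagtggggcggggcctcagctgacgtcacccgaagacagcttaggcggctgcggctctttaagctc
Chst12 (chr5:140505359-140505608, + strand): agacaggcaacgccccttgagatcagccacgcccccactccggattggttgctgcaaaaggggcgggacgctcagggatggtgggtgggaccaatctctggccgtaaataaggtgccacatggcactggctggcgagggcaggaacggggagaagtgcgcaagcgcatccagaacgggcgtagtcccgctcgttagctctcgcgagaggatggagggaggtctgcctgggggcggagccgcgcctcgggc
Bbs2 (chr8:94098510-94098759, - strand): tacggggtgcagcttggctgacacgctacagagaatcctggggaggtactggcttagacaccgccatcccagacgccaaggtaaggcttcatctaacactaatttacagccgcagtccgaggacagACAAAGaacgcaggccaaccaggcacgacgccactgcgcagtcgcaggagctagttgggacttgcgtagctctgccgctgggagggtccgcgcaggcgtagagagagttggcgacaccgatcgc
Wars2 (chr3:99140840-99141089, + strand): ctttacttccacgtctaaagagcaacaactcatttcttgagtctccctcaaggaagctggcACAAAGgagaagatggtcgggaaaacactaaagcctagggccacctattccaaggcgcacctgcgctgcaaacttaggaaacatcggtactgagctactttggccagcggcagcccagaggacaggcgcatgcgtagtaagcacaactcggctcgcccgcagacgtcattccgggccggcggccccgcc
Unc5b (chr10:60831582-60831831, - strand): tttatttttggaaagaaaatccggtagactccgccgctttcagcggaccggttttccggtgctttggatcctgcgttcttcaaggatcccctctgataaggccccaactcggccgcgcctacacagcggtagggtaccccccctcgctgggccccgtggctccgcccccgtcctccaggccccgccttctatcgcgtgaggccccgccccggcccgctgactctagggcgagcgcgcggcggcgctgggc

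Of 50 such upstream sequences in the 263 peaks, 7 held one of these cores on either strand (14%). That was close to the share at starts in SOX8 peaks at H3K4me3 (13.3% of 2873) and in all P2 H3K4me3 peaks (15.2% of 10576), and below the share in the whole table (25.2% of 32851). The letters searched were ACAAAG and ACAATG on both strands, which share the letters ACAA and cannot both match at one position. At Josd2 the core CTTTGT began 18 bases before the start, and at Bbs2 and Wars2 ACAAAG began 124 and 189 bases before it. Tfb1m, Atp6v1e2 and the non-coding genes Gm39468 and Gm9530 held the others. The 50 sequences had a median GC content of 61.2% and a median of 14.5 CpG dinucleotides, against 66% and 22 at SOX8 peaks with H3K4me3 and 52.4% and 6 in the whole table. At P2 H3K4me3 peaks they were 62.4% and 19. The part of base composition in the motif shares was not tested. A match here is a description of letters, not of binding, and the sequence of the other peaks was not used here.

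In median width the 263 peaks were close to the other SOX8 peaks. They ran from 125 to 6029 bp with a median of 2210 bp, against 2218 bp at H3K4me3 and 2846 bp for SOX9 peaks without SOX8. Together they covered 603 kb. Peaks shorter than 1 kb made up 3.04% of them (8 of 263), against 0.209% of those at H3K4me3 (5 of 2390) and 0.228% of SOX9 peaks without SOX8. No filter for regions prone to artefact signal was applied to the lists here. On chromosome 18 lay 10 of the 263 and on the X chromosome 3, against 69 and 11 of the 2390.

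The distance to the nearest P2 H3K4me3 peak was 33716 bp at the median, with quartiles of 13234 and 84016 bp and a highest value of 756629 bp. Within 1 kb of such a peak lay 7 of the 263, within 10 kb 52, and within 50 kb 165. Closest to the limit of the rule were peaks inside Sulf2 (88 bp away), Dnajb5 (153 bp) and Foxo6 (485 bp). Among the other SOX8 peaks, those at Ptprs, at Junb and at Myl6 and Myl6b shared the fewest bases with H3K4me3. That at Ptprs shared 799 of its 4125 bp. The short ones at Junb (637 bp) and at Myl6 and Myl6b (856 bp) lay wholly under it, so they were not at the limit.

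The 263 peaks lay farther from gene ends than the other SOX8 peaks, a property that goes with the rule and is given without a test. Of the 263, 48 had the end of a protein-coding gene at most 1 kb from their centre (18.3%), against 78.4% of SOX8 peaks at H3K4me3 and 15.1% of SOX9 peaks without SOX8. The median distance was 13598 bp, against 317 and 12772 bp. A further 66 peaks lay at 1 to 10 kb, 91 at 10 to 50 kb, 35 at 50 to 100 kb and 23 beyond 100 kb. Counted by overlap, 160 touched a protein-coding gene, and 112 of these had no gene end within 1 kb of the centre. The other 103 lay between genes, at a median of 29965 bp from the nearest one. The farthest peaks were nearest to Slc30a5 (399145 bp), to Alkbh8 (333703 bp), to Zmiz1 (270493 bp), to Pfn2 (264186 bp) and to Sall3 (264109 bp). A start from the promoter table lay in 45 of the 253 peaks that are not on chromosome 18 (17.8%), against 1886 of 2321 such SOX8 peaks at H3K4me3 (81.3%), and in 12 of the 45 every such start was that of a gene that is not protein-coding. Of the farthest peaks, the one near Alkbh8 spans only 125 bp close to the start of the sequence of chromosome 9 (chr9:3001404-3001528).

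**Figure D1:**
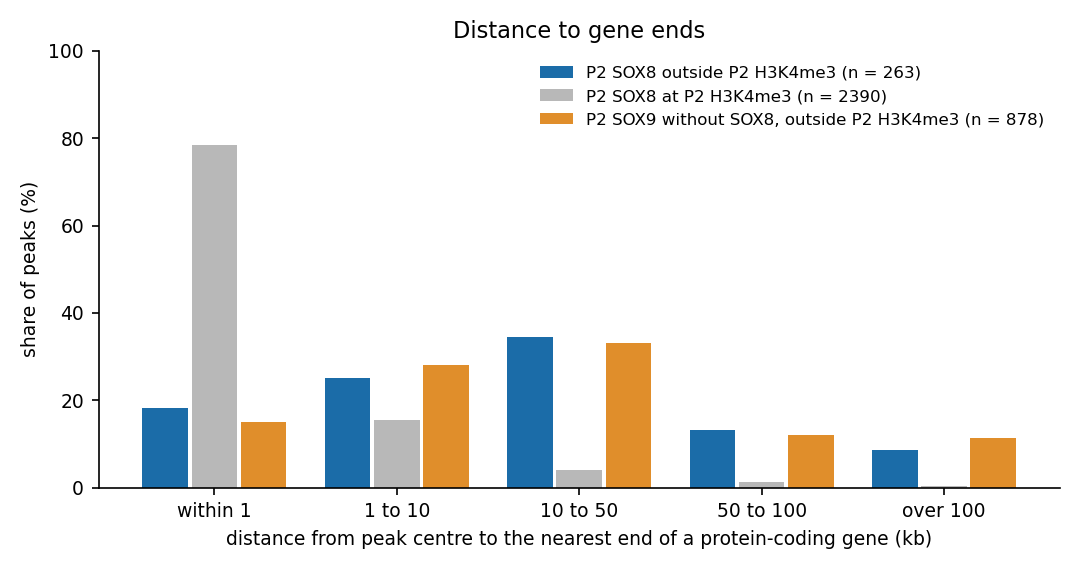
Share of peaks (y axis, %) by distance from the peak centre to the nearest end of a protein-coding gene (x axis, kb), for the 263 P2 SOX8 peaks outside H3K4me3 (blue), the 2390 at H3K4me3 (grey) and the 878 P2 SOX9 peaks outside H3K4me3 without SOX8 (orange). The blue and orange bars are highest at 10 to 50 kb and the grey bar is highest within 1 kb.

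Nearest genes numbered 237, and 28 of them were nearest to more than 1 of the peaks. Gse1, which codes for a protein of LSD1 and HDAC corepressor complexes, had 5, all inside its 352883 bp. Nfic (a nuclear factor I transcription factor) and Ccdc85c (a coiled-coil protein of apical junctions) had 3 each, all inside the gene. Of all 263 peaks, 44 (16.7%) lay within 50 kb of another, in 20 runs of at most 3. The widest of all lay 4751 bp from Hjurp, which codes for a chaperone of the centromeric histone CENP-A. It was followed by peaks of 5535 bp near 1700021F07Rik, 5200 bp in Adam11, 5070 bp in Znrf4 and 4918 bp in Tspan9. Btg2, an antiproliferative gene of neurogenic progenitors, followed with a peak of 4576 bp, 9868 bp from the gene. Peaks in Mxra7 (4122 bp), near the somatostatin receptor gene Sstr5 (4001 bp), in Ccdc85c (3734 bp) and in Dkk3 (3659 bp) completed the 10 widest.

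Lists of retinal genes were then read for peaks within 5 kb. Of 213 genes on 8 lists, 6 had one of the 263 peaks there (2.82%), against a background of 0.873% of 21887 protein-coding genes. For any P2 SOX8 peak the counts were 56 of 213 (26.3%) against 15.1%. Of the genes with any P2 SOX8 peak within 5 kb, one of the 263 was there for 6 of 56 on the lists and for 191 of 3302 in all. No list is called particular from these counts.

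Among 38 Müller glia genes, 2 had a peak, Kcnj10 and Dkk3. Kcnj10 codes for the potassium channel Kir4.1 of Müller glia and held a peak of 1913 bp inside the gene, 8973 bp from its start. The 3659 bp peak in Dkk3, a secreted protein abundant in these glia, overlapped P2 SOX9 and P17 H3K27ac, as did that in Kcnj10, and neither overlapped a P17 SOX peak. Of 25 neurogenic and fate factors, Casz1 and Insm1 had a peak, both being genes of zinc-finger transcription factors. Casz1 held 2 peaks, of 2928 and 2301 bp, inside the gene at 147232 and 136060 bp from its start, and both overlapped P2 SOX9, P17 SOX9 and P17 H3K27ac. Near Insm1 a peak of 3094 bp lay 2964 bp away, and at P17 it overlapped H3K27ac alone. The gene nearest to that peak was Cfap61, 905 bp away. Of 44 signalling genes, Maml3 (a coactivator of Notch) had one besides Dkk3.

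Gnat1, the rod transducin gene, was the only one of 30 photoreceptor genes with a peak, of 2447 bp. It did not overlap P2 SOX9, the nearest SOX9 peak being 6088 bp away, but at P17 it lay wholly under SOX8, SOX9, H3K4me3 and H3K27ac. None of 34 progenitor genes had one of the 263 peaks within 5 kb, and 21 had a P2 SOX8 peak of some kind. None was found for 26 genes of other retinal neurons, 18 Sox genes or 21 genes of astrocytes, microglia, endothelium and pigment epithelium. Over all protein-coding genes the share was 0.873% (191 of 21887). In lists of this size a count of none is close to that share and is not read as an absence. Within 50 kb the counts were 18 of 213 listed genes (8.45%) and 551 of all 21887 (2.52%).

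Counted as the nearest gene at any distance, 3 of the 34 progenitor genes had such a peak (Ccnd1, Hes1 and Notch1), against 237 of all 21887 genes. Sox9 and Dll4, described with them here, come from other lists. Sox9 itself was the nearest gene of 2, one of 1303 bp lying 72931 bp from the gene on its lower-coordinate side (chr11:112707977-112709279) and one of 2856 bp lying 193350 bp away on the other side (chr11:112981107-112983962). Both overlapped a P2 SOX9 peak and no peak of any P17 list. That lack was not limited to these 2 sites. The whole stretch plotted around Sox9, the gene included, held no P17 peak of SOX8, SOX9 or H3K4me3. H3K27ac had 2 peaks there at P17, against 98 at P2, in lists that hold 29909 and 287845 peaks in all. Measured from the lower-coordinate end of Sox9, one of these 2 ended at 197480 bp and the farther site began at 198897 bp. The cause was not tested. Upstream of the receptor gene Notch1 a peak of 3618 bp (chr2:26532896-26536513) lay 29074 bp from the gene, with P2 SOX9 and P17 H3K27ac. Dll4, a Notch ligand gene, had one of 3113 bp at 10088 bp upstream, with P2 SOX9 and no P17 peak. Hes1, a repressor downstream of Notch, was the nearest gene of a peak 181019 bp away, and Ccnd1, the cyclin D1 gene, of one 70341 bp away. Both of these overlapped P2 SOX9 and no P17 list.

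The neighbourhoods of other Sox genes gave a mixed picture. Peaks lay 27958 bp from Sox10 and 66624 bp upstream of Sox13, each with P2 SOX9 and P17 H3K27ac. The 4001 bp peak near Sstr5 lay 44794 bp downstream of Sox8 and overlapped SOX9 at both ages. At P17 it had neither mark. A peak that overlapped the gene Bcan lay 5694 bp from Nes, which codes for nestin, and had P2 and P17 SOX9. Both were also present at a peak that overlapped Dand5, 13084 bp upstream of Nfix, where P17 H3K27ac was present as well. Near Axin2, a feedback inhibitor of Wnt signalling, a peak of 858 bp lay 60518 bp away and overlapped SOX8 and SOX9 at P17 but not SOX9 at P2. This peak was among the 8 shorter than 1 kb, and the P17 peaks over it spanned 1509 bp (SOX8) and 1528 bp (SOX9). Whether signal at such short peaks is an artefact was not tested. Which gene a peak acts on, if any, was not tested.

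**Figure D2:**
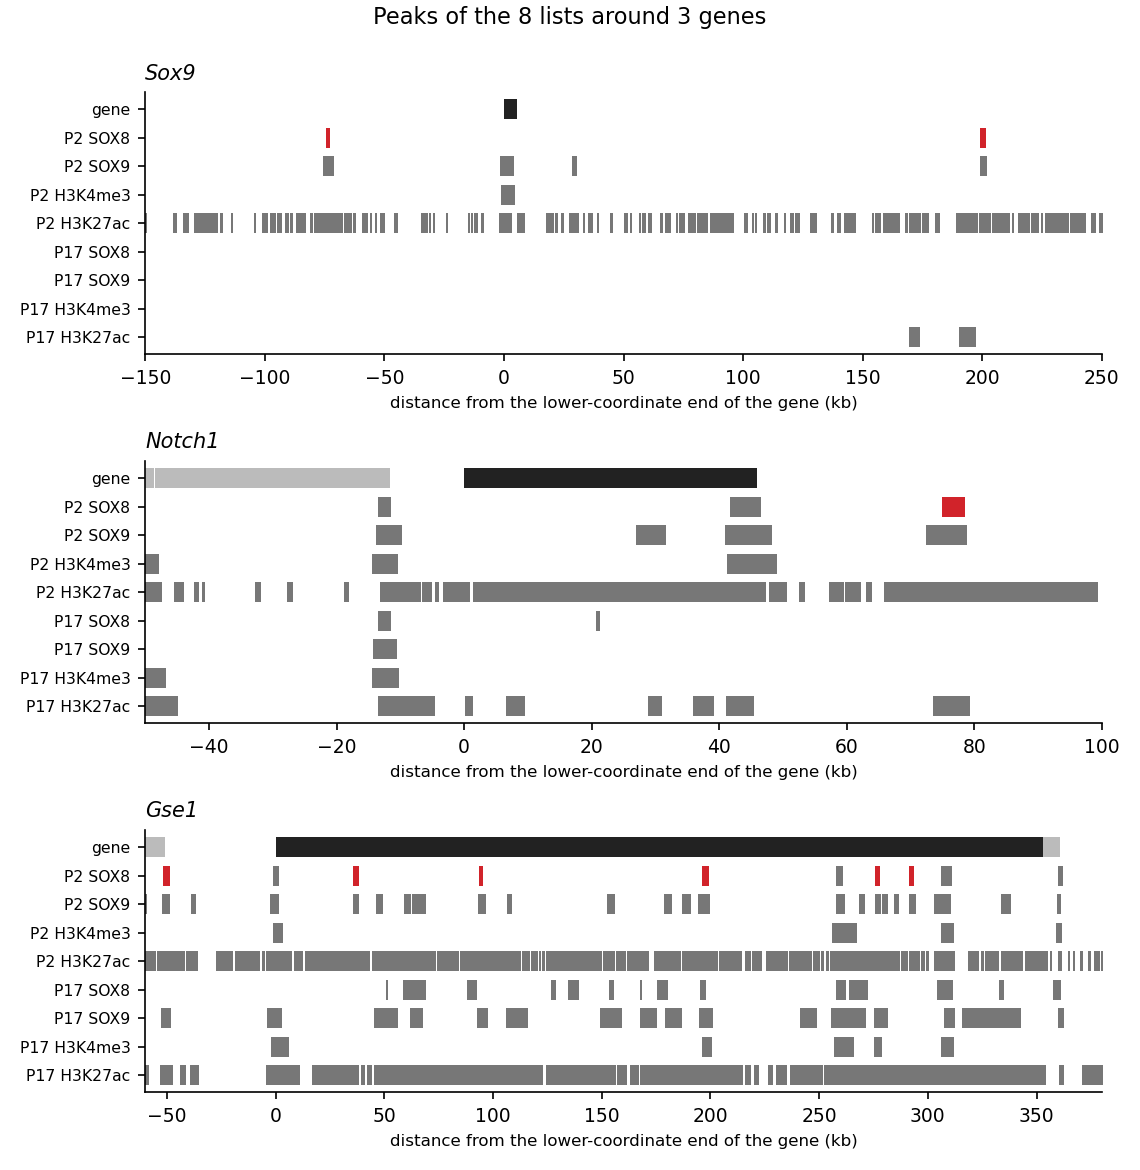
Peaks of the 8 lists (rows) by distance from the lower-coordinate end of the gene (x axis, kb) around Sox9, Notch1 and Gse1, which are drawn in black with other genes in light grey. Red bars are P2 SOX8 peaks outside P2 H3K4me3 and grey bars are all other peaks. Around Sox9, 2 red bars flank the gene with P2 SOX9 beneath each, and no P17 SOX peak lies anywhere in the stretch drawn. Inside Gse1 lie 5 red bars.

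SOX9 was present at most of these sites at P2. A P2 SOX9 peak overlapped 229 of the 263 (87.1%, 82.5 to 90.6%), against 95.4% of SOX8 peaks at H3K4me3 (94.4 to 96.1%) and 94.5% of all P2 SOX8 peaks. The difference of -8.28 percentage points passed the threshold of 0.05 (two-sided Fisher's exact test, p = 1.20e-06 after Benjamini-Hochberg adjustment over 7 comparisons). With all peaks trimmed to 500 bp around their centres it was -14.4 points (62.7% against 77.2%). It was not past the threshold in the wider 50% of each SOX list (-7.87 points, Fisher's exact adjusted p = 0.0812). Its sign turned when only the widest P2 SOX9 peaks were kept, as many as at P17, with 56.7% against 55.9% (Fisher's exact adjusted p = 0.844).

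Where both factors were present, the SOX9 peak was usually the wider one, in 190 of 229. Its median width was 3047 bp against 2230 bp for the SOX8 peak, and 132 SOX8 peaks lay wholly inside it. Only 4 of the SOX9 peaks reached a P2 H3K4me3 peak. Read from the other side, 226 of the 1104 P2 SOX9 peaks outside H3K4me3 had SOX8 (20.5%), against 45.5% of all P2 SOX9 peaks.

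The 34 SOX8 peaks without P2 SOX9 lay between 799 and 487216 bp from the nearest SOX9 peak, with a median of 58824 bp, and 9 were within 10 kb of one. Their median width was 1990 bp. The widest was the 6029 bp peak near Hjurp, which was 1377 bp from a SOX9 peak and overlapped no P17 list. Wnt3, a Wnt ligand gene, held the next one (3524 bp), which overlapped P17 SOX8 and P17 H3K27ac. Those in Macrod1 (3380 bp), Ccdc85c (3030 bp) and near Msl1 (2645 bp), Slc30a5 (2709 bp) and Copz2 (2532 bp) overlapped P17 H3K27ac, with P17 SOX9 as well in Ccdc85c and P17 SOX8 near Copz2. Those in Zfp423 (3162 bp) and near 1600014C23Rik (3045 bp) overlapped no P17 list. At the histone gene H4c3 the peak of 2504 bp lay wholly under P17 H3K4me3. Wnt7b, another Wnt ligand gene, was nearest to 2 peaks without SOX9, 28206 and 30366 bp away. At P17, SOX8 overlapped 14.7% of the 34 and 18.8% of the 229, and SOX9 overlapped 14.7% and 27.5%. The interval of the 34 (6.45 to 30.1% for either factor) covers both values of the 229. P17 H3K27ac overlapped 70.6% and 76.4%.

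H3K27ac overlapped 262 of the 263 peaks at P2 (99.6%), against 99.7% of all P2 SOX8 peaks, in a list of 287845 peaks. With that list limited to its 29909 widest peaks, the number at P17, 192 of the 263 overlapped one (73%, 67.3 to 78%). The same share was 42.1% of SOX8 peaks at H3K4me3 and 71.4% of SOX9 peaks without SOX8. The H3K27ac peak over a SOX8 peak had a median width of 8780 bp outside H3K4me3 and of 2975 bp at H3K4me3. Over SOX9 peaks without SOX8 that median was 7144 bp. The exception at Unc5b (chr10:60830207-60831988) lay 484 bp from a gene end and held the start shown above. It overlapped P17 SOX8 and no other list.

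At P17 SOX8 was found at fewer of the 263 sites than at the other P2 SOX8 sites. A P17 SOX8 peak overlapped 48 (18.3%, 14.1 to 23.4%), against 48.8% of those at H3K4me3 (46.8 to 50.8%) and 45.8% of all P2 SOX8 peaks. The difference was -30.6 points (two-sided Fisher's exact test, adjusted p = 6.24e-22). P17 SOX9 overlapped 68 (25.9%, 20.9 to 31.5%), against 50.5% (48.5 to 52.5%) and, over all P2 SOX8 peaks, 48.1%. The difference was -24.6 points (Fisher's exact adjusted p = 2.02e-14). In the wider 50% of each SOX list the SOX8 difference was -12.7 points (Fisher's exact adjusted p = 0.00583), but that of SOX9 turned to 2.92 points, with 21.5% against 18.6% (Fisher's exact adjusted p = 0.41). With all peaks trimmed to 500 bp around their centres the shares were 9.89% against 37.6% for P17 SOX8 and 9.13% against 28.1% for P17 SOX9.

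Neither SOX factor had a P17 peak at 178 of the 263 (67.7%, 61.8 to 73%), against 38.1% of SOX8 peaks at H3K4me3 and 41% of all P2 SOX8 peaks. This difference of 29.6 points had an adjusted p of 1.68e-19 in Fisher's exact test, and in the wider 50% it was 7.66 points with an adjusted p of 0.119. Of the 85 sites with a P17 SOX peak, 17 had SOX8 alone, 37 SOX9 alone and 31 both. Among the widest with SOX8 alone were those in Adam11 and Wnt3, and with SOX9 alone those near Sstr5 and Cstad (3322 bp) and in Srrm4 (3408 bp), a gene of a neural splicing factor. The 85 lay closer to P2 H3K4me3 than the 178, at a median of 21957 against 41552 bp, and 30.6% of them had P17 H3K4me3, against 12.4%. Their median widths were 2315 and 2171 bp, and their shares with P2 SOX9 were 90.6% and 85.4%.

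The SOX9 peaks without SOX8 lie outside P2 H3K4me3 as well, so both sets share the rule on that mark. P17 SOX9 overlapped 14.2% of them (12.1 to 16.7%), so the 263 sites had it 11.6 points more often (two-sided Fisher's exact test, adjusted p = 2.56e-05). With peaks trimmed to 500 bp the difference was 5.82 points, at 9.13% against 3.3%. Their P17 H3K27ac share was 67.3% (64.1 to 70.3%), and the 263 sites were 8.35 points above it (Fisher's exact adjusted p = 0.00969). The latter difference was not past the threshold with all peaks trimmed to 500 bp (3.5 points, Fisher's exact adjusted p = 0.257) or with no gene end within 1 kb (5.57 points, Fisher's exact adjusted p = 0.131). P17 SOX8 overlapped 10.9% of the SOX9 peaks without SOX8. That value is given without a test, since the lack of P2 SOX8 defined them.

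P17 H3K27ac overlapped 199 of the 263 (75.7%, 70.1 to 80.5%), against 94.9% of SOX8 peaks at H3K4me3 (94 to 95.7%) and 93% of all P2 SOX8 peaks. The difference of -19.3 points had an adjusted p of 2.36e-21 in Fisher's exact test. The compared peaks were chosen by a promoter mark, and 96% of them overlapped P17 H3K4me3. H3K27ac marks active promoters too, so a higher share there can go with the rule itself, which the test cannot separate. With all peaks trimmed to 500 bp around their centres the shares were 27.8% and 41.2%. That setting also cuts the P17 H3K27ac peaks, whose median width over the 263 sites was 6153 bp, so lower shares were built into it. At 103 of the 263 (39.2%) H3K27ac was the only P17 peak, and at 53 (20.2%) there was no P17 peak of any target, against 1.76% of SOX8 peaks at H3K4me3 and 29.5% of SOX9 peaks without SOX8. A P17 SOX peak without P17 H3K27ac was found at 10 sites, among them those near Sstr5, Nes and Axin2 and that at Unc5b.

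**Figure D3:**
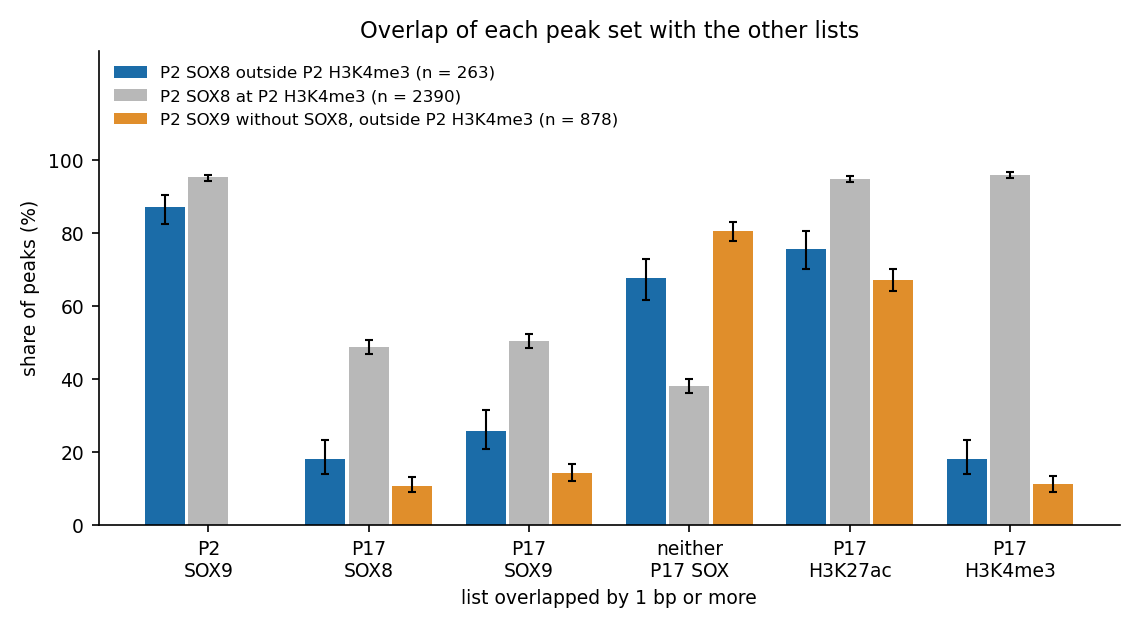
Share of peaks (y axis, %) that overlapped each list by 1 bp or more, with 95% Wilson intervals, for the 263 P2 SOX8 peaks outside H3K4me3 (blue), the 2390 at H3K4me3 (grey) and the 878 P2 SOX9 peaks outside H3K4me3 without SOX8 (orange, left out at P2 SOX9, which defines them). For P17 SOX8, P17 SOX9 and both P17 marks the blue bars lie between the orange and the grey ones.

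H3K4me3 appeared at some of these sites by P17. Its P17 peaks overlapped 48 of the 263 (18.3%, 14.1 to 23.4%), against 96% of SOX8 peaks at P2 H3K4me3, 88.3% of all P2 SOX8 peaks and 11.2% of SOX9 peaks without SOX8. These values are close to the rule and are given without a test. Of the 48 sites with a gene end within 1 kb, 24 had P17 H3K4me3 (50%, 36.4 to 63.6%), and of the 215 without one, 24 had it (11.2%, 7.62 to 16.1%). Presence of a listed start gave a like split, at 51.1% of 45 sites with one and 11.1% of those without. For P17 SOX8 the shares were 20.8% near gene ends and 17.7% elsewhere, and for P17 SOX9 they were 27.1% and 25.6%, with intervals that overlap for each factor. The widest sites with P17 H3K4me3 lay near Btg2, at the start of the non-coding gene Gm19497, inside Gse1 and near Asic4, an ion channel gene. Then followed sites in Nfic and Fam222a, at the starts of Chst12 and Pigz, at H4c3 and at Foxj1 and Rnf157. In Btg2's site H3K4me3 covered 2242 of 4576 bp and in that of Nfic 76 of 3075 bp, whereas those in Gse1, Asic4, Chst12 and H4c3 were covered whole.

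**Figure D4:**
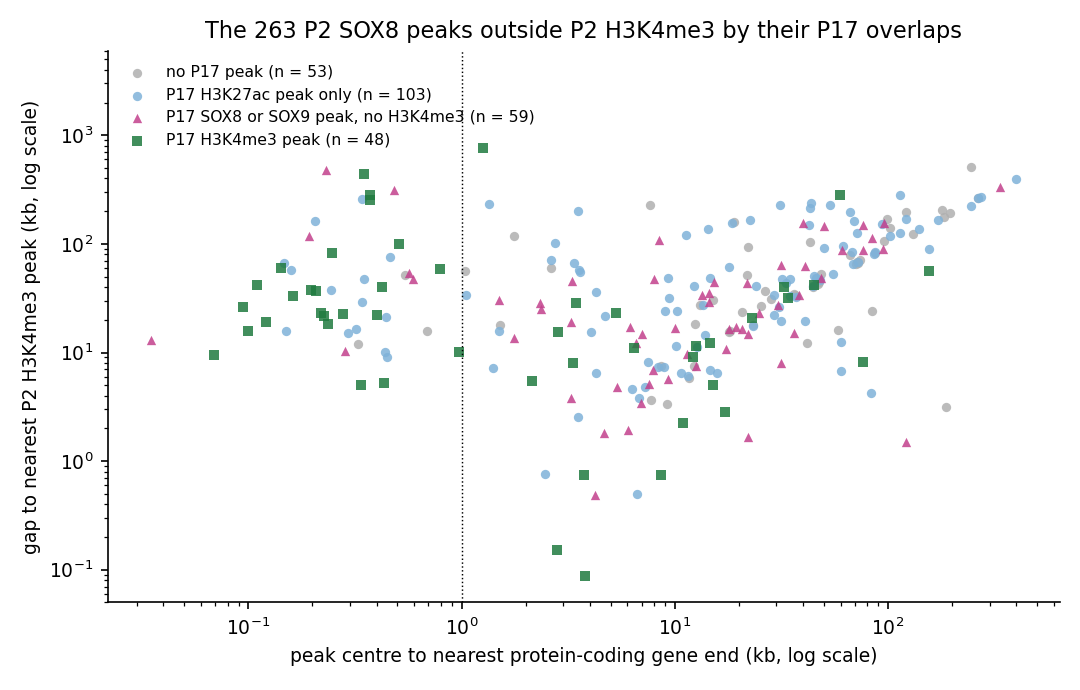
Each of the 263 P2 SOX8 peaks outside H3K4me3 by the distance from its centre to the nearest protein-coding gene end (x axis, kb, log scale) and by its gap to the nearest P2 H3K4me3 peak (y axis, kb, log scale). Colours give the P17 overlaps, and the dotted line marks 1 kb: 24 of the 48 green squares, the sites with P17 H3K4me3, lie to its left.

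Combined over P2 SOX9 and the 4 lists of P17, the 263 sites fell into 21 patterns. The most frequent was P2 SOX9 with P17 H3K27ac alone (89 sites), followed by P2 SOX9 with nothing at P17 (45). Next came P2 SOX9 with P17 SOX9 and H3K27ac (22), P2 SOX9 with both P17 marks (17) and P2 SOX9 with both P17 SOX factors and H3K27ac (16). All 5 lists were overlapped at 11 sites and none at 8. Among the sites near genes named above, those in Casz1 had the pattern with P17 SOX9 and H3K27ac. Of the 5 in Gse1, all had P17 H3K27ac, 3 had P17 SOX9, 2 had P17 H3K4me3 and 1 had P17 SOX8. The 3 in Nfic all had P17 SOX9 and H3K27ac, and 2 of them P17 H3K4me3. These 2 lay under the same P17 SOX9 peak of 30451 bp, the widest of its list, so they are not separate P17 SOX9 peaks.

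**Figure D5:**
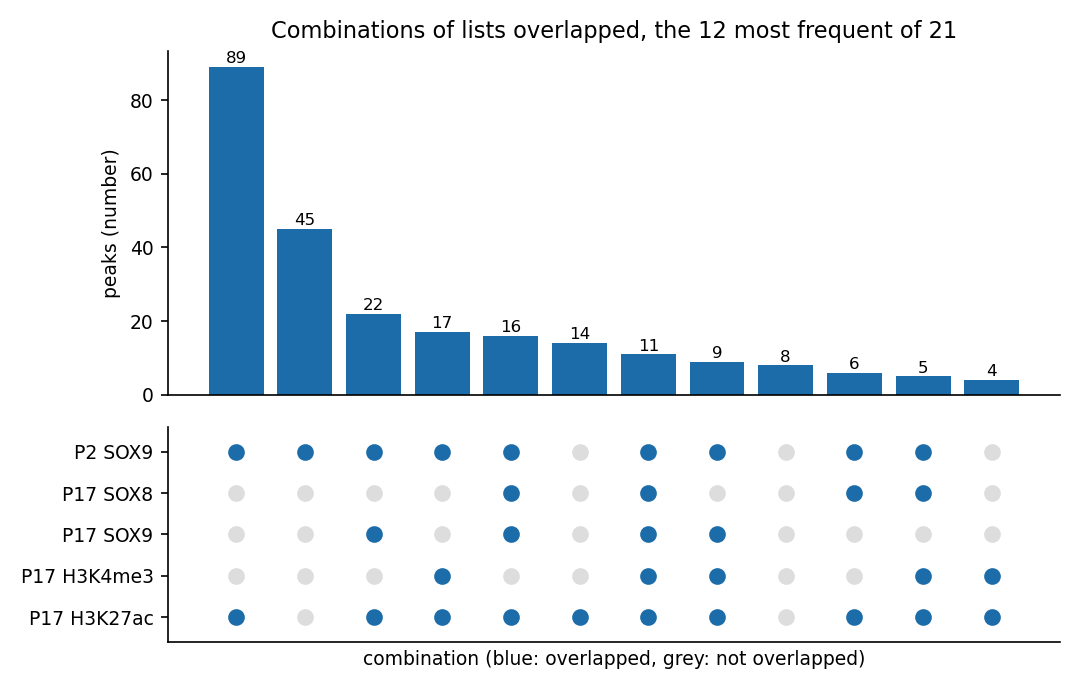
Number of the 263 P2 SOX8 peaks outside H3K4me3 (y axis) with each of the 12 most frequent combinations of P2 SOX9 and the 4 lists of P17 (columns of dots, blue where a list was overlapped). The first columns hold 89 and 45 sites, both with P2 SOX9 and without a P17 SOX peak.

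SOX8 and SOX9 were both present at both ages at 29 of the 263 sites (11%, 7.79 to 15.4%), against 891 of the 2390 at H3K4me3 (37.3%). In width they were led by Znrf4, Btg2, Mxra7, Ccdc85c, Pcbp3 (a poly(C)-binding protein gene), Gse1, Asic4 and Cstad. Foxo6, a forkhead factor gene, Chst12, Dscaml1 (a cell adhesion gene), Sorbs3, E330021D16Rik, Pnpla3 and Tle2 (a Groucho corepressor gene) came next. Further ones lay at Rps6ka1, Lpar5, Rbm5, Tex44, Aspdh and Josd2, Cyp46a1, Agap1, Zfat, Zfp395, Phf19 and, as the short peak of 125 bp on chromosome 9, far from Alkbh8. Coverage at P17 varied among them. The P17 SOX8 peak covered the whole of the sites at Chst12 and Josd2, but 810 of 3734 bp in Ccdc85c and 204 of 2866 bp at Foxo6. P17 SOX peaks were also wider than the sites they overlapped, with a median of 3664 bp for SOX8 over sites of 2406 bp and of 5974 bp for SOX9 over sites of 2327 bp. Over the whole lists the medians were 2912 bp for P17 SOX8, 5336 bp for P17 SOX9 and 2217 bp for P2 SOX8. Of these P17 peaks, those at 20 of 48 sites for SOX8 and at 25 of 68 for SOX9 reached a P17 H3K4me3 peak.

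The hairpins of the RefSeq miRNA table that lay inside one of the 263 peaks were Mir1191b in Nfic and Mir6392 at Pnpla3. Mir3089, 1348 bp from a peak, Mir7052, 1715 bp from one, and Mir7045, 6450 bp from one, were the others within 10 kb.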

How the data were processed

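Positions of peaks in 8 deposited lists, 1 for each target and age, were used. Per the submitters' processing notes the tools were Bowtie2 and SEACR and the build was GRCm38. Versions, thresholds, the use of IgG and the way in which libraries were joined are not given in the sources used here. The deposited score was 0 in every peak, so peaks carry no height or p-value, and depth is unknown. Every share can move with the depth and threshold behind its list.

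Overlaps of 1 bp or more, gaps and nearest genes were computed in Python 3.11.15 (numpy 2.4.6, pandas 2.3.3, scipy 1.17.1, matplotlib 3.10.9), with starts counted from 1. A gap is the distance to the nearest base. Genes (21887 protein-coding, whose ends stand in for starts) and promoters (32851, with a strand) came from RefSeq tables of GRCm38.p6. Of the protein-coding genes, 17492 matched a promoter. Shares were compared by two-sided Fisher's exact tests, adjusted by the Benjamini-Hochberg method over 7 comparisons, and the procedure was tested on simulated data. Measures close to the rule (width, gene ends, H3K4me3, P2 H3K27ac) were not tested. P17 H3K27ac was tested, although it too can go with promoters and so with the rule. Planned motif counts around peak centres were replaced by counts in promoters, as no genome was at hand.

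The sites, gene lists and tests were chosen with earlier results of these data known. Named genes are those of the 10 widest peaks in all, with a P17 SOX peak, without P2 SOX9 and with P17 H3K4me3. Peaks in all 4 SOX lists, without P2 H3K27ac, at listed genes and at genes with several peaks were named too. So were those at the 5 largest distances from genes, with the smallest gap to P2 H3K4me3 or with the smallest overlap with it. Some of these genes are not reported here. Alternatives changed the overlap, width, distance to H3K4me3, chromosomes, gene ends and list lengths.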

Additional observations from a re-analysis of the deposited data

Results flagged for a closer look

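The P17 overlap of the SOX8 sites differed between those outside and those at P2 H3K4me3 for each SOX factor, by a test of the difference itself. For P17 SOX8 the difference was -30.6 percentage points (18.3% against 48.8%), and it kept its sign and its side of the threshold in 11 of 11 alternatives, between -34.4 and -12.7 points. For P17 SOX9 it was -24.6 points (25.9% against 50.5%), and it did so in 10 of 11 alternatives, with 2.92 points in the wider 50% of each SOX list. Several of these alternatives left nearly the same sites, as set out below. Because the lists hold no replicate values, neither difference was set against an error between libraries.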

How the results depend on the processing

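Across the 7 comparisons of shares, 72 of 78 alternatives kept the direction and the side of the threshold. That count is not a measure of robustness, since several alternatives left nearly the same sites and could hardly differ. Autosomes only left 260 sites, a gap of at least 1 kb to P2 H3K4me3 256, and leaving out the start of chromosome 9 262. Counting under 50% overlap with P2 H3K4me3 as outside gave 265. With the wider 50% of each SOX list, which leaves 130 of the 263 sites, the P2 SOX9 difference was -7.87 points (Fisher's exact adjusted p = 0.0812), that of P17 SOX9 turned to 2.92 points (adjusted p = 0.41) and that of sites with neither P17 SOX factor was 7.66 points (adjusted p = 0.119) in Fisher's exact tests. With only the 2855 widest P2 SOX9 peaks, the P2 SOX9 difference turned to 0.796 points (Fisher's exact adjusted p = 0.844). Against SOX9 peaks without SOX8, the P17 H3K27ac difference was 3.5 points with peaks trimmed to 500 bp and 5.57 points with no gene end within 1 kb (Fisher's exact adjusted p = 0.257 and 0.131). The cause of these changes was not tested. The P2 H3K27ac share went from 99.6% to 73% with only the widest peaks of that list, as many as at P17, and the listed genes with a site from 6 to 18 of 213 with 50 kb on either side, while all protein-coding genes with one went from 191 to 551 of 21887. Leaving out the start of chromosome 9, an alternative chosen after seeing the data, changed no call, and reading all 300 bases of a promoter, likewise chosen later, gave a motif share of 16%. Motif windows of 200 bp and of the whole peak were not run, for lack of a genome sequence. No paired analysis was possible because the lists carry no replicates, and for the same reason no replicate could be left out. The lists give no depth, so a site missing from a list may lie under its threshold.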
